A study of Mus musculus with 54 samples.

Results

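Interferon-stimulated genes were followed across all 18 groups of libraries from mouse embryonic stem cells that lack, or carry altered, subunits of Polycomb repressive complex 2 (PRC2). The 41 members were a list of interferon-stimulated and antigen-processing genes, matched by symbol among 55141 genes with a symbol, of 55487 gene identifiers in the count tables. The list was drawn up because Isg15 and Usp18 were higher on day 4 in the Suz12 series cells that carry an empty vector, so every comparison that uses those libraries is given as a description, without a test. By role the members were 4 regulators of transcription, 5 genes of the ubiquitin-like ISG15 pathway and 5 genes that sense or edit nucleic acid. There were also 16 antiviral effectors, 4 antigen-processing genes, 3 partners in ADP-ribosylation and ubiquitin transfer, and 4 others.

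The study profiled poly(A) RNA by QuantSeq, which sequences 1 tag near the 3′ end of each transcript, in 54 libraries of 3 replicates per group. In the Ezh2 series every line was Ezh1-/-:Ezh2-/- and carried either an empty PiggyBac vector (EV), PiggyBac-Ezh2 (WT), or PiggyBac-Ezh2 with the substitutions K510R, K514R and K515R (amKR), lysines that the complex methylates on itself. In the Suz12 series every line was SUZ12-/- and carried an empty PiggyBac vector (EV), PiggyBac-SUZ12 (WT), or PiggyBac-SUZ12-deltadim (ddim), an altered SUZ12 in a study whose title names dimerization of PRC2. Day 0 cells grew with LIF, CHIR99021 and PD0325901, and day 1 and day 4 cells had been given 0.1 µM retinoic acid without those 3 additions. "WT" therefore names a rescued knockout line rather than unmodified cells, and whether a line was 1 clone was not stated in the sources used here.

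Type I interferons bind a cell-surface receptor whose kinases phosphorylate STAT2, which joins IRF9 in a complex that binds the interferon-stimulated response element (ISRE), a repeat of GAAA letters, in the promoters of target genes. Interferon gamma acts at a palindromic site called GAS, and IRF1 acts at many of the same promoters as STAT2 and IRF9. Embryonic stem cells are known for a weak interferon response, and PRC2, which methylates histone H3, keeps many inducible genes silent in other cell types.

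To show what the members share at their starts, the promoters of RefSeq (build GRCm38.p6, from 250 bases before to 50 after the start) were searched for 2 motifs. The ISRE-type repeat was GAAA, any 2 bases and GAAA again, which on the other strand reads TTTC, any 2 bases and TTTC, and both strands were searched. The GAS letters were TTC, any 3 bases and GAA, which read the same on both strands. A promoter was found for 32 of the 41 members. Counted by gene, the repeat was in 12 of the 32 (37.5%) and in 3.99% of 27025 genes with a promoter. The GAS letters were in 9 of the 32 (28.1%) and in 9.55% of those genes. Counted by promoter, the shares were 3.44% and 8.3% of 32851 promoters. The repeat was in B2m, Bst2, Eif2ak2, Ifih1, Ifit1, Ifit3, Ifitm2, Ifitm3, Isg15, Oas1a, Rsad2 and Stat2. The GAS letters were in Adar, Bst2, Eif2ak2, Ifi35, Ifit2, Ifitm3, Irf1, Oas1a and Psmb8, and in Bst2 the 2 motifs overlapped. The repeats of 4 members that the results turn on, and the GAS letters of Irf1, are shown, each read 5′ to 3′ on the strand of the gene with the match in capitals.
Isg15, minus strand, chr4:156200850-156200921: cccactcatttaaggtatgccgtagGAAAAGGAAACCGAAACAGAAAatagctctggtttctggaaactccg
Ifit1, plus strand, chr19:34640760-34640838: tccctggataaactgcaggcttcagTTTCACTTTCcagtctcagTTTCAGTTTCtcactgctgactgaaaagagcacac
Bst2, minus strand, chr8:71537562-71537627: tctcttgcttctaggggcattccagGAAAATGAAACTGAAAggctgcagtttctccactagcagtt
B2m, plus strand, chr2:122147523-122147582: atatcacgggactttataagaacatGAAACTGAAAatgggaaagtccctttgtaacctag
Irf1, plus strand, chr11:53769899-53769957: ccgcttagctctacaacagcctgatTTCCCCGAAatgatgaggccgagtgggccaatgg
In Isg15, 3 matches overlapped between 78 and 57 bases before the start. In Ifit1, 2 separate matches lay between 104 and 76 bases before it. The match describes letters only, and it does not show that a factor was bound there.

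The libraries held between 3801446 and 5111007 counts on genes. Levels are given as CPM, the count of a gene relative to the library size after scaling by the trimmed mean of M-values, and 3 counts over the 3 libraries of a group, taken as the floor, correspond to 0.193 to 0.269 CPM. Floors and counts cover counting error only. As a check of the labels, Suz12 averaged 68.1 CPM in EV and 439 CPM in WT on day 0 of the Suz12 series. In the Ezh2 series, Ezh1 averaged 9.29 CPM in the libraries labelled EV and 0.148 CPM in WT on day 0, and Ezh2 averaged 183 and 88.3 CPM. The label Ezh1-/-:Ezh2-/- gives no deleted exons, and a 3′ tag outside the deleted part checks nothing, so these values do not decide the genotype. They do show that EV and WT of that series differ in Ezh1 tags as well as in the vector. Ezh1 was called higher in EV than in WT on days 0, 1 and 4. Between amKR and WT it was not called at day 0 or day 1. The part of this difference in the comparisons with EV of that series was not tested. The stem cell markers summed to between 4250 and 5010 CPM on day 0 of the Ezh2 series, with 10 of 10 detected. After the filter on low counts the Ezh2 series allowed a test of 25 members among 14086 genes, and the Suz12 series of 33 members among 14442 genes. In the latter, Usp18, Ifit1, Ifit2 and Mx2 passed only through the EV libraries of day 4. The 8 members without a test there were Ifit3, Irf7, Oasl1, Ifih1, Dhx58, Cmpk2, Mx1 and Zbp1, whose highest libraries lay between 0.689 CPM (Mx1) and 3.93 CPM (Ifit3). The 16 without one in the Ezh2 series were these apart from Ifih1, together with Isg15, Usp18, Oasl2, Rtp4, Mx2, Psmb8, Psmb9, Lgals3bp and Uba7, with highest libraries from 0.197 CPM (Ifit3) to 3.83 CPM (Psmb8). In that series Ifih1 reached the filter's cutoff of 2.2 CPM in 3 libraries, all EV of day 4. Ifit1 reached it in 5, all EV or amKR of day 1. Calls of Ifih1 and Ifit1 in comparisons with those groups, and counts that hold them, are thus not independent of the filter. Dtx3l and Parp9, and Tap1 and Psmb9, overlap on opposite strands, the Ifit, Ifitm, Oas and Oasl genes have close copies, and the strand used in counting was not given in the sources used here, so their reads may be shared. Replicate 2 of EV on day 4 in the Ezh2 series stood apart from the other libraries of its group, with a chi-square per gene of 42.4 and 25.5 against 8.55 for the remaining pair. Replicate 3 of WT at day 1 in the Suz12 series did so too, with 8.56 and 9.99 against 2.11. So did replicate 2 of amKR, with 18.1 and 11.7 against 3.35 at day 0 and 12.3 and 16.7 against 4.8 at day 1. Some results that rest on these libraries are also given without them, and the others are given only with them. Fewer responding cells and less RNA per cell cannot be told apart in such bulk libraries. Nothing in the labels says that replicates came from separate cultures, so p-values measure the spread between libraries, which may be technical.

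On day 4 of the Suz12 series, 33 of the 33 members that could be tested had a higher level in EV than in WT. A total of 27 of the 33 had no EV library as low as any WT library, against 13.2% of all genes, and 21 of the 33 passed the threshold that 3.66% of all genes passed upward. These counts follow from how the list was chosen and from the filter, and nothing is read from them. The ISG15 pathway conjugates the ubiquitin-like protein ISG15 to other proteins. Isg15, which encodes the modifier, stood at 27.6, 26.2 and 34.0 CPM in the EV libraries, at 3.49, 4.94 and 4.42 CPM in WT, and at 4.40, 4.10 and 3.84 CPM in ddim. The EV libraries lay far above the others, and WT and ddim overlapped. Usp18, whose product removes ISG15 and dampens the interferon receptor, stood at 7.83, 9.88 and 8.31 CPM in EV, at 1.16, 1.65 and 2.33 CPM in WT, and at 2.32, 1.82 and 1.36 CPM in ddim. On the log2 scale EV exceeded WT by 2.76 (SE 0.241) for Isg15 and by 2.32 (SE 0.393) for Usp18. The enzymes of the pathway stood closer together. Ube2l6, which carries ISG15 to its targets, was 0.69 higher on the log2 scale, Uba7, which activates it, 0.68, and Trim25, a ubiquitin ligase that acts in RIG-I signalling, 0.53.

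**Figure D1:**
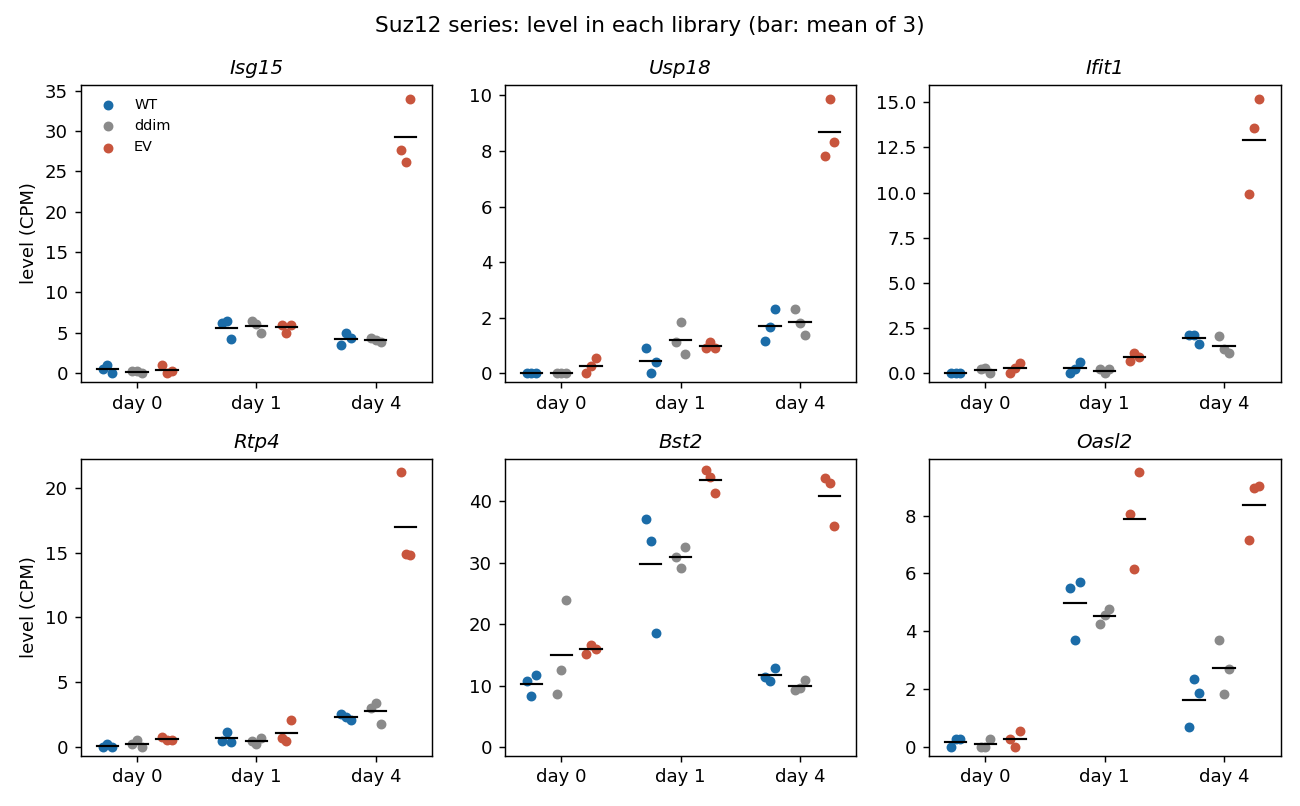
CPM of Isg15, Usp18, Ifit1, Rtp4, Bst2 and Oasl2 in each library of the Suz12 series on days 0, 1 and 4, with a bar at the mean of 3 libraries. On day 4 the EV libraries stand above every WT and ddim library for each of the 6 genes, as with Isg15 at 26.2 to 34.0 CPM in EV and 3.49 to 4.94 CPM in WT.

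Among the antiviral effectors, Rtp4, a transmembrane protein that restricts viruses, stood at 21.2, 14.9 and 14.8 CPM in EV on day 4, at 2.56, 2.35 and 2.09 CPM in WT, and at 3.01, 3.42 and 1.81 CPM in ddim. Ifit1, which binds viral RNA caps, stood at 9.91, 13.6 and 15.2 CPM in EV, at 2.10, 2.12 and 1.63 CPM in WT, and at 2.09, 1.37 and 1.13 CPM in ddim. Both genes had no overlap of EV with either other line. Bst2, which tethers budding virus to the cell, stood at 43.8, 43.0 and 36.0 CPM in EV, at 11.4, 10.8 and 12.8 CPM in WT, and at 9.27, 9.57 and 10.9 CPM in ddim. Oasl2, of the oligoadenylate synthetase family, stood at 7.14, 8.96 and 9.01 CPM in EV, at 0.699, 2.35 and 1.86 CPM in WT, and at 3.71, 1.82 and 2.71 CPM in ddim. EV again stood apart from the other lines for both. The log2 difference of EV from WT was 2.85 (SE 0.327) for Rtp4, 2.71 (SE 0.357) for Ifit1, 2.34 (SE 0.360) for Oasl2 and 1.81 (SE 0.201) for Bst2. The difference was smaller for Ifitm1, 1.10, Ifitm3, 0.50, and Ifitm2, 0.40, which encode membrane proteins that block viral entry. Rsad2, encoding viperin, and Ifit2 had EV and WT libraries that overlapped.

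Members of the other roles were set side by side on day 4 as well. Xaf1, which promotes cell death, stood at 19.6, 18.8 and 16.2 CPM in EV and at 3.73, 6.58 and 7.67 CPM in WT. Ifi27, a mitochondrial protein induced by interferon, stood at 28.8, 24.8 and 25.6 CPM in EV and at 9.09, 14.6 and 10.7 CPM in WT. No EV library of either gene was as low as a WT library. The partners Parp9 and Dtx3l, which act together in ADP-ribosylation and ubiquitin transfer, were 1.46 and 1.26 higher on the log2 scale. For Parp9 the WT libraries stood at 0.466, 3.53 and 3.26 CPM, and the difference was 0.97 without WT replicate 1. Adar, which edits double-stranded RNA, was 1.31 higher, and Eif2ak2, encoding PKR, a kinase that senses such RNA, was 0.57 higher. Among the regulators, Irf9 was 0.76 higher, Stat2 0.25 and Irf1 0.17. B2m, the light chain of MHC class I, stood at 320, 323 and 277 CPM in EV and at 260, 255 and 255 CPM in WT, a log2 difference of 0.26, and Tap1, the peptide transporter, differed by 0.30. Among the 33 members the log2 difference was thus over 2 for Isg15, Usp18, Rtp4, Ifit1, Oasl2 and Mx2, and 0.30 or less for B2m, Tap1, Rsad2, Stat2, Ifit2 and Irf1. Members at the low end of detection included Ifit3, not tested, at 1.61, 2.99 and 3.93 CPM in EV and 0.932, 0.235 and 0.465 CPM in WT.

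**Figure D2:**
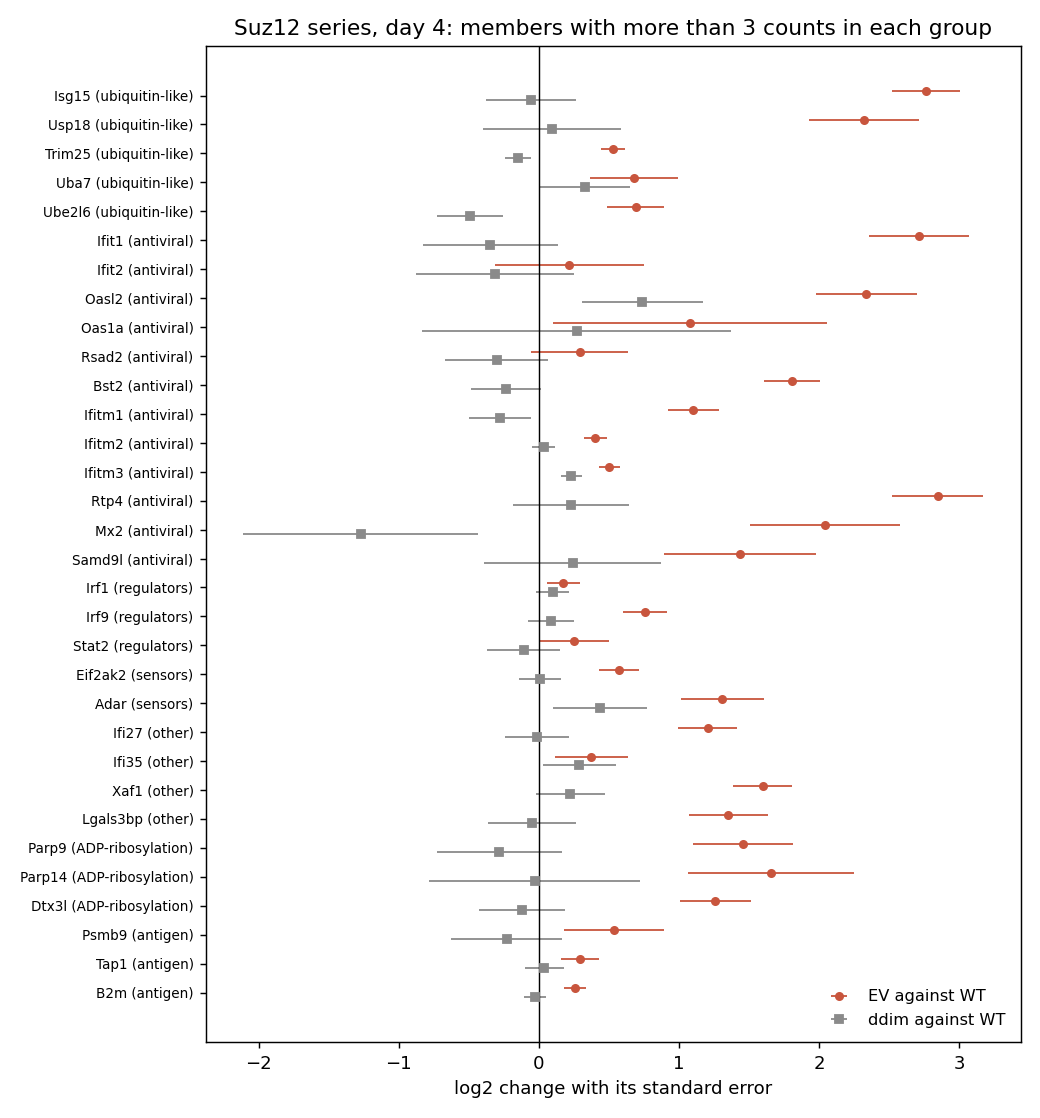
Log2 change with its standard error for 32 members with more than 3 counts in each group on day 4 of the Suz12 series, EV against WT and ddim against WT. The EV values run from 0.17 for Irf1 to 2.85 for Rtp4, and the ddim values lie around 0, with a median of −0.03 over the 33 members tested.

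Markers of other cells were set beside these values. On day 4 the 9 blood and macrophage markers summed to between 8.5 and 10.4 CPM in EV and between 16.0 and 23.0 CPM in WT, and Adgre1, Cd3e, Ptprc and Tyrobp were at 0 in EV. The 8 extraembryonic endoderm markers summed to between 3580 and 3720 CPM in EV and between 4280 and 4450 CPM in WT, the 7 fibroblast markers to between 1500 and 1730 CPM and between 1410 and 1570 CPM, and the 10 stem cell markers to between 99.0 and 119 CPM and between 88.9 and 101 CPM. The part of these differences in the result was not tested.

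Before day 4 the Suz12 series EV cells differed from WT in a few members. At day 0, 4 of 33 members were higher and 2 lower, where 5.44% and 5.36% of all genes were. The median log2 difference was 0.15 over the members and −0.01 over all genes. B2m stood at 52.8, 55.6 and 43.8 CPM in EV and at 33.6, 31.9 and 28.4 CPM in WT, and it was higher by 0.70 on the log2 scale (SE 0.112, edgeR adjusted p = 1.74e-05). Ube2l6 stood at 24.0, 28.6 and 35.1 CPM in EV and at 11.8, 17.4 and 12.7 CPM in WT, higher by 1.06 (SE 0.179, edgeR adjusted p = 3.84e-05). In both genes the libraries did not overlap. Samd9l, a growth-restricting antiviral gene, and Xaf1 were also higher, by 1.85 and 0.47, with edgeR adjusted p of 0.00643 and 0.0311. Without WT replicate 1 or 2, Samd9l had an adjusted p of 0.0529 or 0.0651, and Xaf1 missed the threshold without EV replicate 1 or 2 or WT replicate 2 or 3, with adjusted p from 0.0639 to 0.162.

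Ifitm1 went the other way at day 0, at 189, 190 and 138 CPM in EV and 308, 288 and 271 CPM in WT. No EV library reached a WT library, and the gene was lower, with a log2 difference of −0.75 on the log2 scale (SE 0.0997, edgeR adjusted p = 5.62e-07). Irf1 was lower, with a log2 difference of −0.54 (SE 0.144, edgeR adjusted p = 0.0105), which became 0.0734 without EV replicate 2 and 0.0699 without WT replicate 2. Isg15 stood at 1.07, 0 and 0.27 CPM in EV and at 0.537, 1.07 and 0 CPM in WT, and Usp18 at 0, 0.267 and 0.541 CPM in EV and at 0 in all 3 WT libraries, at or near the floor in both. Without WT replicate 2, only 3 of the 6 calls were made. Beside these calls, the extraembryonic endoderm markers at day 0 summed to between 29.4 and 43.0 CPM in EV and between 56.4 and 61.1 CPM in WT, and the blood markers to between 11.5 and 14.9 CPM and between 22.0 and 26.6 CPM. The stem cell markers summed to between 4380 and 4580 CPM in EV and between 4190 and 4310 CPM in WT, and the fibroblast markers, which overlapped, to between 4.81 and 12.4 CPM and between 6.72 and 9.91 CPM. Their part in the calls was not tested.

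After 1 day of retinoic acid, 5 of 33 members were higher in EV and 2 lower, where 3.97% and 4.12% of all genes were, and the median was 0.29 against 0.00 over all genes. Irf1 stood at 102, 90.4 and 103 CPM in EV and at 68.8, 68.7 and 57.0 CPM in WT, higher by 0.61 on the log2 scale (SE 0.104, edgeR adjusted p = 8.91e-05). Trim25 stood at 56.1, 57.1 and 64.1 CPM in EV and at 76.3, 78.9 and 82.4 CPM in WT, lower, with a log2 difference of −0.42 (edgeR adjusted p = 0.00157). Ifitm2 stood at 81.3, 75.8 and 78.0 CPM in EV and at 103, 95.6 and 96.1 CPM in WT, lower, with a log2 difference of −0.33 (edgeR adjusted p = 0.00955), with an adjusted p of 0.0569 without EV replicate 2. In these 3 genes no library of one group reached the other. Isg15 had by then reached 6.03, 5.01 and 6.02 CPM in EV and 6.17, 6.48 and 4.22 CPM in WT, and the libraries overlapped. Usp18 stood at 0.894, 1.14 and 0.926 CPM in EV and at 0.914, 0 and 0.422 CPM in WT.

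The other 4 calls of day 1 were each lost when some 1 library was left out. Bst2 was higher by 0.55, Dtx3l by 0.58, Parp14, an ADP-ribosyltransferase, by 1.28 and Ifitm3 by 0.29, with edgeR adjusted p of 0.0356, 0.0482, 0.0289 and 0.0137. Leaving out EV replicate 1, 2 or 3, or WT replicate 3, ended the call of Bst2, with adjusted p from 0.064 to 0.339, and without WT replicate 3 its log2 difference was 0.30. Dtx3l lost its call without EV replicate 1, 2 or 3 or WT replicate 1 or 2, with adjusted p from 0.0526 to 0.215. Parp14 lost it without EV replicate 1, 2 or 3 or WT replicate 1 or 3, with adjusted p from 0.0637 to 0.129. Ifitm3 lost it without EV replicate 1 or WT replicate 3, with adjusted p of 0.0878 and 0.102. By DESeq2 the adjusted p was 0.0716 for Bst2, 0.0791 for Dtx3l and 0.0584 for Parp14. The count of members called fell to 3 without EV replicate 1 or 2 and to 4 without EV replicate 3 or WT replicate 3. At day 1 the endoderm markers summed to between 1170 and 1200 CPM in EV and between 1410 and 1600 CPM in WT, with 4 of 8 called lower, and the blood markers to between 4.86 and 7.06 CPM and between 7.59 and 8.68 CPM. The stem cell markers summed to between 643 and 748 CPM in EV and between 563 and 897 CPM in WT, with 5 of 10 called higher, and the fibroblast markers to between 57.4 and 61.7 CPM and between 51.8 and 57.9 CPM. What part these had in the 7 calls was not tested.

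The comparison of ddim with WT asks whether the alteration of SUZ12 changes these levels. By edgeR, 0 of 33 members differed between ddim and WT at day 0, where 0% of all genes did, and 0 of 33 on day 4, where 0.0831% were higher and 0.0623% lower. DESeq2 also called 0 at both. At an unadjusted p under 0.05, 4 members differed at day 0 and 2 on day 4, without the share of all genes beside it, and nothing is read from it. On day 4, 15 of 33 members had a higher level in ddim, and the log2 difference from WT was −0.06 (SE 0.318) for Isg15, 0.09 (SE 0.494) for Usp18, −0.24 (SE 0.250) for Bst2 and −0.03 (SE 0.0769) for B2m. At day 1, Ifitm3 alone was called among the 33 members, where 0.0277% of all genes were higher and 0.0346% lower. It stood at 196, 207 and 221 CPM in ddim and at 166, 163 and 144 CPM in WT, without overlap, and it was higher by 0.40 on the log2 scale (SE 0.0772, edgeR adjusted p = 0.016). The adjusted p was 0.0838 without ddim replicate 2, 0.216 without ddim replicate 3, 0.269 without WT replicate 3 and 0.733 in a fit of the compared libraries only.

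**Figure D3:**
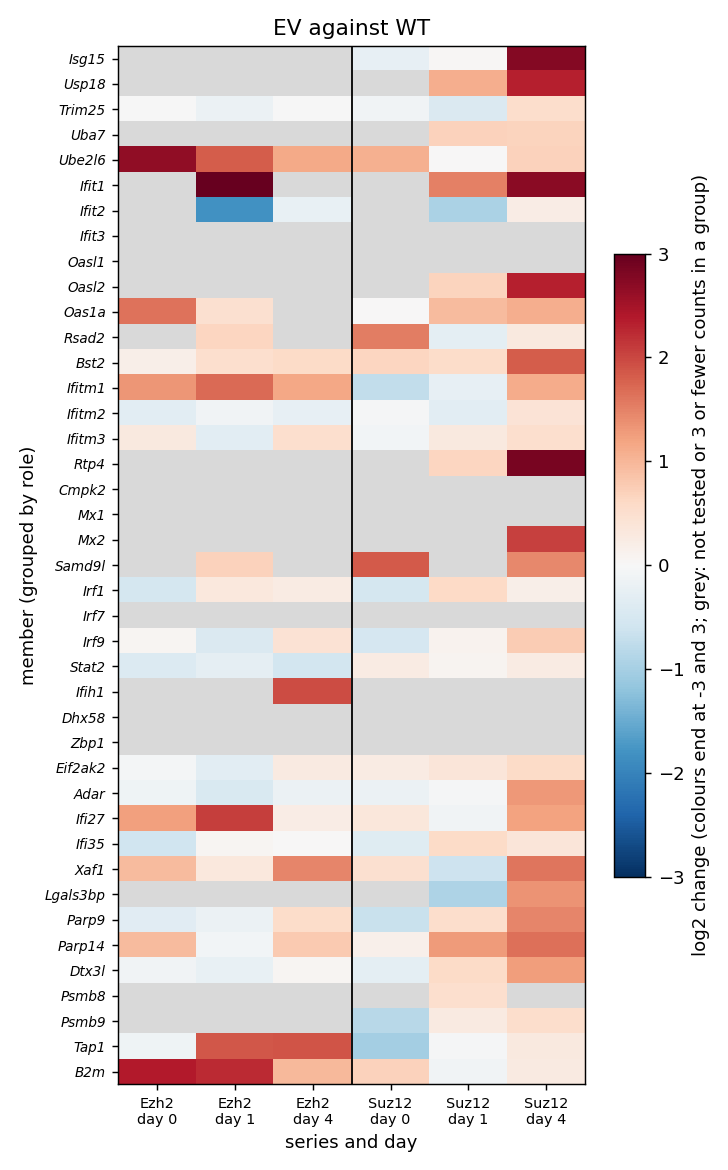
Log2 change of EV against WT for the 41 members, by series and day, with grey where a member was not tested or a group had 3 or fewer counts, and colours that end at −3 and 3. The Suz12 series day 4 column is positive for every member shown, and the Ezh2 series is positive on each day for B2m and Ifitm1.

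For the Ezh2 series, EV was compared with WT on each day, and B2m, Ifitm1, Tap1, Ifit1, Ube2l6 and Xaf1 were among the members higher in EV. Isg15 and Usp18 did not pass the filter there. On day 4 Isg15 stood at 1.81, 1.09 and 3.55 CPM in EV, at 1.16, 0.591 and 0.406 CPM in WT and at 0.796, 0.599 and 1.57 CPM in amKR. Usp18 stood at 2.22, 1.27 and 1.97 CPM in EV, at 1.36, 0.986 and 0 CPM in WT and at 0.796, 0.798 and 0.786 CPM in amKR. The EV libraries overlapped WT for both genes. At day 0, 6 of 25 members were higher and 1 lower in EV, where 17.4% and 12.5% of all genes were. At day 1 they were 5 and 1, where 13.5% and 7.63% were. On day 4 they were 7 and 0, or 6 and 1 without EV replicate 2, where 9.74% and 8.24% were. At an unadjusted p under 0.05, 10 of 25 members differed on day 4, and so did 4226 of 14086 genes. The median log2 difference over the members was 0.07, 0.31 and 0.51 on days 0, 1 and 4, and over all genes 0.04, 0.07 and 0.01.

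Antigen processing held the members with the smallest adjusted p. B2m stood at 73.3, 66.6 and 52.0 CPM in EV at day 0 and at 13.8, 12.7 and 10.4 CPM in WT. At day 1 it stood at 19.0, 19.7 and 15.6 CPM in EV and at 2.70, 3.88 and 4.93 CPM in WT. On day 4 it stood at 161, 106 and 145 CPM in EV and at 79.8, 76.9 and 53.6 CPM in WT. EV was above WT without overlap on each day, by 2.37 (SE 0.195, edgeR adjusted p = 4.09e-10), 2.23 (SE 0.251, adjusted p = 1.13e-07) and 0.97 (SE 0.164, adjusted p = 7.84e-05) on the log2 scale. Without EV replicate 2 of day 4, the difference on day 4 was 1.12 for B2m and 1.92 for Tap1. Between day 0 and day 4 the effect of EV, tested as an interaction, changed for 2 members upward and 1 downward, where 5.13% and 7.31% of all genes did. For B2m the change was −1.41 (SE 0.254, edgeR adjusted p = 0.000304). Tap1 followed another course. It stood at 1.46, 0.707 and 0.942 CPM in EV at day 0 and at 1.78, 0.455 and 1.13 CPM in WT, and the libraries overlapped. At day 1 it stood at 5.62, 5.88 and 8.14 CPM in EV and at 2.47, 1.72 and 1.12 CPM in WT, and on day 4 at 53.2, 53.1 and 58.9 CPM and at 11.0, 15.6 and 17.9 CPM. Tap1 was higher in EV by 1.87 (SE 0.323, edgeR adjusted p = 8.11e-05) at day 1 and by 1.89 (SE 0.201, adjusted p = 4.64e-08) on day 4. Its difference from day 0 to day 4 grew by 2.02 (SE 0.555, edgeR adjusted p = 0.015), and that adjusted p was 0.175, with a log2 value of 1.56, without WT day 0 replicate 1. The immunoproteasome gene Psmb8 was not tested. It stood at 2.11, 0.904 and 3.83 CPM in EV and at 0, 0.215 and 0 CPM in WT at day 1.

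**Figure D4:**
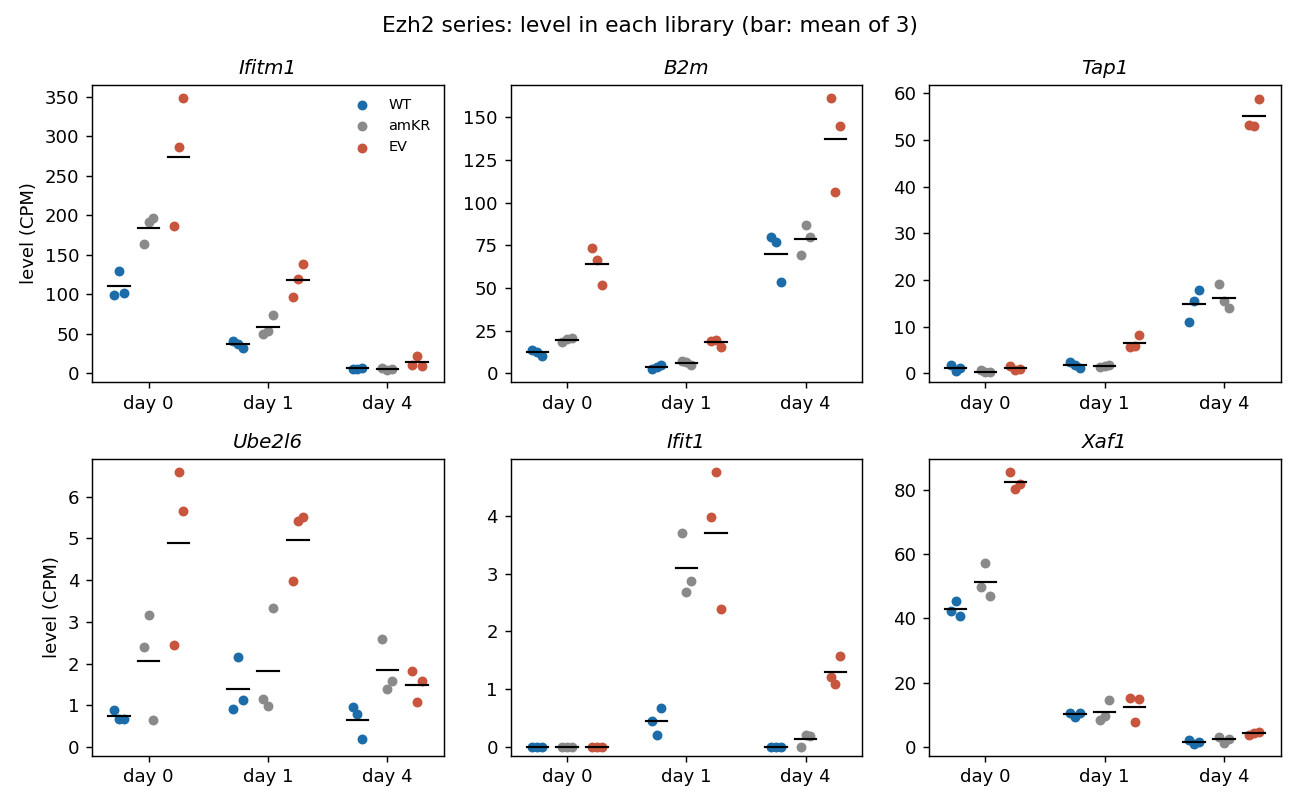
CPM of Ifitm1, B2m, Tap1, Ube2l6, Ifit1 and Xaf1 in each library of the Ezh2 series on days 0, 1 and 4, with a bar at the mean of 3 libraries. B2m lies higher in EV than in WT and amKR on all 3 days, and Tap1 separates on days 1 and 4, at 53.1 to 58.9 CPM in EV on day 4.

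Ifitm1, the viral entry blocker that was lower in EV at day 0 of the Suz12 series, was higher in EV of the Ezh2 series. At day 0 it stood at 187, 286 and 348 CPM in EV, at 99.3, 129 and 102 CPM in WT and at 164, 192 and 197 CPM in amKR. At day 1 it stood at 97.1, 119 and 139 CPM in EV and at 40.9, 37.5 and 31.6 CPM in WT. The EV libraries lay above WT on both days, by 1.31 (SE 0.205, edgeR adjusted p = 1.98e-05) and 1.69 (SE 0.220, adjusted p = 1.26e-06). On day 4 they stood at 10.5, 21.4 and 9.06 CPM against 5.81, 5.52 and 7.11 CPM, and the call rested on EV replicate 2. The log2 difference of 1.16 (edgeR adjusted p = 0.00737) became 0.66 (adjusted p = 0.13) without it. Ifit1 stood at 3.98, 4.75 and 2.39 CPM in EV at day 1 and at 0.45, 0.215 and 0.673 CPM in WT, higher by 2.99 (SE 0.528, edgeR adjusted p = 0.0003). It passed the filter only through libraries of EV and amKR at day 1, so this p is not independent of the filter. On day 4 Ifit1 stood at 1.21, 1.09 and 1.58 CPM in EV and at 0 in every WT library, at least 6.52-fold higher against the floor over the group. Rsad2 on day 4 had 27 counts in EV and 3 in WT (edgeR adjusted p = 0.00714). Ifit2 was lower in EV at day 1 by −1.81 (edgeR adjusted p = 0.0484), which rests on 6 counts in EV and 23 in WT. Its call was lost without any 1 of EV replicate 1, 2 or 3 or WT replicate 1 or 3, with adjusted p from 0.0956 to 0.147, and the adjusted p with the replicate number as a block was 0.0601. Samd9l at day 0 had 20 counts in EV and 1 in WT (edgeR adjusted p = 0.0034), and it lies on chromosome 6, where the median log2 difference of all genes was −0.27.

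Other roles held single calls. Xaf1 stood at 85.5, 80.3 and 81.9 CPM in EV at day 0 and at 42.3, 45.5 and 40.7 CPM in WT, higher by 0.95 (SE 0.181, edgeR adjusted p = 0.000232), and it was higher by 1.47 on day 4 (adjusted p = 0.0034). Parp14 stood at 7.55, 5.42 and 8.48 CPM in EV at day 0 and at 4.01, 3.87 and 3.17 CPM in WT, higher by 0.95 (edgeR adjusted p = 0.00794). The groups did not overlap for either gene. Ube2l6 stood at 2.44, 6.59 and 5.65 CPM in EV at day 0 and at 0.89, 0.682 and 0.678 CPM in WT, higher by 2.66 (edgeR adjusted p = 0.000559). At day 1 it was higher by 1.81 (edgeR adjusted p = 0.00841), and the adjusted p was 0.0583 without WT replicate 1. Ifih1, encoding the RNA sensor MDA5, stood at 3.83, 3.08 and 2.56 CPM in EV on day 4 and at 0.775, 0.591 and 1.02 CPM in WT, higher by 1.96 (edgeR adjusted p = 0.015). Its adjusted p was 0.0565 without EV replicate 1, 0.0635 without WT replicate 2 and 0.101 by DESeq2. Ifih1 passed the filter only through these EV libraries, so its p is not independent of the filter. Irf1 stood at 15.6, 13.2 and 12.2 CPM in EV at day 0 and at 16.3, 20.7 and 21.7 CPM in WT, lower, with a log2 difference of −0.52 (edgeR adjusted p = 0.0282), and the call was lost without EV replicate 2 or 3 or WT replicate 2 or 3, with adjusted p from 0.064 to 0.0896. In the authors' deposited lists named WTvsKO and up, 4 members were among 1004 symbols for day 0, 7 among 882 for day 1 and 3 among 543 for day 4. The members are 41 of 55141 genes with a symbol. Ifitm1 was in each of the 3 lists. The lists named WTvsKO and down, and all those named WTvsamKR, held 0 members. Only the names of the lists give a direction, and nothing is read from these counts.

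Markers of extraembryonic endoderm, 8 genes that include Gata6, Sox17 and Dab2, moved with EV in the Ezh2 series before day 4. They summed to between 87.2 and 97.0 CPM in EV and between 13.7 and 18.3 CPM in WT at day 0, to between 336 and 365 CPM and between 49.7 and 59.0 CPM at day 1, and to between 3230 and 3810 CPM and between 3290 and 3820 CPM on day 4. At day 0 fibroblast markers summed to between 5.11 and 9.41 CPM in EV and between 0.682 and 1.13 CPM in WT. Blood markers then summed to between 6.57 and 9.43 CPM and between 9.72 and 13.7 CPM. At day 1 fibroblast markers summed to between 14.3 and 15.5 CPM and between 7.54 and 12.1 CPM. Sums of the stem cell markers at days 0 and 1, and of the blood markers at day 1, overlapped. On day 4 the endoderm sums overlapped, with Sox17 called higher and Dab2 lower in EV. The fibroblast markers on day 4 summed to between 260 and 280 CPM in EV and between 199 and 243 CPM in WT, and the blood markers to between 6.44 and 8.32 CPM and between 2.64 and 4.33 CPM, neither with overlap. The stem cell markers, also without overlap, summed to between 130 and 168 CPM and between 172 and 184 CPM. Of these 10 markers, 4 were called lower and 2 higher in EV. The part of these differences in the calls was not tested on any day.

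The comparison of amKR with WT asks whether the 3 lysines of Ezh2 bear on these levels. Against WT, 1 of 25 members was higher and 0 lower at day 0, where 3.01% and 2.09% of all genes were, 2 and 0 at day 1, where 1.37% and 0.632% were, and 0 and 0 on day 4, where 1.17% and 0.454% were. On day 4 DESeq2 called 0. At an unadjusted p under 0.05, 1 member differed then, without the share of all genes beside it, and nothing is read from it. Ifitm1 at day 0 was higher by 0.75 (SE 0.204, edgeR adjusted p = 0.0325), and leaving out any 1 of amKR replicate 1, 2 or 3 or WT replicate 1, 2 or 3 raised the adjusted p to between 0.0581 and 0.115. At day 1, Ifit1 stood at 3.71, 2.68 and 2.88 CPM in amKR against 0.45, 0.215 and 0.673 CPM in WT, higher by 2.73 (SE 0.541, edgeR adjusted p = 0.0141). Its adjusted p was 0.0701 without amKR replicate 1, 0.0766 without WT replicate 1 and 0.0836 without WT replicate 2. The gene passed the filter only through libraries of amKR and EV at day 1. Parp14 at day 1 stood at 11.8, 18.8 and 13.1 CPM in amKR against 6.52, 7.76 and 7.85 CPM in WT, higher by 0.98 (edgeR adjusted p = 0.0237). Its adjusted p was 0.106 without amKR replicate 2, 0.128 without WT replicate 1, 0.083 without WT replicate 2 and 0.0764 without WT replicate 3. Against EV on day 4, amKR was lower in 6 of 25 members, where 5.57% of all genes were, and higher in 0, where 5.28% were. Tap1 averaged 16.1 CPM in amKR and 55.1 CPM in EV (log2 difference −1.77, edgeR adjusted p = 1.9e-07) and B2m 78.8 and 137 CPM (−0.80, adjusted p = 0.00114). The others were Ifih1, Ifit1, Ifitm1 and Rsad2, and each lost its call under some alternative. By edgeR Ifitm1 had an adjusted p of 0.00356 and 0.0823 without EV replicate 2. For Ifih1 the edgeR adjusted p of 0.00878 became 0.0584 without amKR replicate 1 or 2, and 0.0641 by DESeq2. The gene passed the filter only through the EV libraries compared here. For Ifit1 the edgeR adjusted p of 0.00891 became 0.0501 without amKR replicate 1. Rsad2 had an edgeR adjusted p of 0.048, which was 0.0597 with the replicate block, 0.0555 with no filter on low counts, 0.0615 by DESeq2, and between 0.0781 and 0.198 without amKR replicate 1 or 2 or EV replicate 1, 2 or 3. The count was 3 without amKR replicate 1 and 4 without EV replicate 2.

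The members also moved during differentiation of the rescued WT lines. Of the 33 in the Suz12 series, 15 were higher and 11 lower at day 1, where 32.9% and 29.2% of all genes were, and 18 and 11 on day 4, where 37.1% and 36.5% were. Of the 25 in the Ezh2 series, 9 were higher and 7 lower at day 1, where 22.5% and 24.2% were, and 5 and 12 on day 4, where 29.8% and 27.6% were. B2m had WT libraries at 33.6, 31.9 and 28.4 CPM at day 0 and at 260, 255 and 255 CPM on day 4 in the Suz12 series, without overlap, and it rose by 3.04 on the log2 scale (SE 0.0967, edgeR adjusted p = 1.57e-29). For the Ezh2 series the rise was 2.51 (SE 0.193, adjusted p = 5.79e-12), from 13.8, 12.7 and 10.4 CPM to 79.8, 76.9 and 53.6 CPM. Tap1 rose on day 4 by 3.17 in the Suz12 series (edgeR adjusted p = 5.89e-18) and by 3.69 in the Ezh2 series (adjusted p = 5.06e-11). Ifitm1 fell in both series, from 308, 288 and 271 CPM to 10.5, 11.3 and 10.7 CPM in the Suz12 series and from 99.3, 129 and 102 CPM to 5.81, 5.52 and 7.11 CPM in the Ezh2 series. Its log2 changes were −4.74 (edgeR adjusted p = 9.77e-31) and −4.16 (adjusted p = 1.25e-13). Xaf1, Adar, Trim25, Dtx3l, Parp9, Parp14, Ifitm2 and Ifitm3 were also lower on day 4 in both series. The markers of cell types moved over the same days. In WT the stem cell markers went from between 4250 and 4820 CPM at day 0 to between 172 and 184 CPM on day 4 for the Ezh2 series, and from between 4190 and 4310 CPM to between 88.9 and 101 CPM for the Suz12 series. Endoderm markers went from between 13.7 and 18.3 CPM to between 3290 and 3820 CPM, and from between 56.4 and 61.1 CPM to between 4280 and 4450 CPM. Fibroblast markers went from between 0.682 and 1.13 CPM to between 199 and 243 CPM, and from between 6.72 and 9.91 CPM to between 1410 and 1570 CPM. Their part in the changes of the members was not tested.

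The WT lines of the series stood at different marker levels at day 1. The stem cell markers summed to between 2860 and 3120 CPM for the Ezh2 series and between 563 and 897 CPM for the Suz12 series, and the endoderm markers to between 49.7 and 59.0 CPM and between 1410 and 1600 CPM, and the part of this in the values that follow was not tested. In the Suz12 series Isg15 rose from 0.537, 1.07 and 0 CPM at day 0 to 6.17, 6.48 and 4.22 CPM at day 1, and Psmb9 from 1.61, 0.268 and 1.06 CPM to 7.31, 6.94 and 5.91 CPM. The libraries of the 2 days did not overlap for either gene. Without WT replicate 3 of day 1, 14 members were called higher and 9 lower, in place of 15 and 11, and Isg15 rose by 3.50. With it, the log2 changes of Isg15 and Psmb9 were 3.32 (edgeR adjusted p = 8.99e-08) and 2.74 (adjusted p = 4.7e-07). Isg15 stayed at 3.49, 4.94 and 4.42 CPM on day 4, higher than day 0 by 2.93 (edgeR adjusted p = 2.01e-06). Lgals3bp, a secreted glycoprotein, went from 0 in every WT library at day 0 to 5.82, 5.88 and 5.58 CPM on day 4, at least 21.6-fold higher. In the Ezh2 series Bst2 rose at day 1 by 1.58 (edgeR adjusted p = 0.000333), and by 1.53 (adjusted p = 7.9e-08) in the Suz12 series, and Irf1 rose by 0.99 (adjusted p = 1.25e-05) and 1.02 (adjusted p = 9.58e-10). B2m fell by 1.68 on the log2 scale at day 1 of the Ezh2 series (edgeR adjusted p = 6.49e-06) and rose in the Suz12 series by 1.23 (adjusted p = 6.56e-14). The difference between series was not tested, since each series was fitted on its own.

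**Figure D5:**
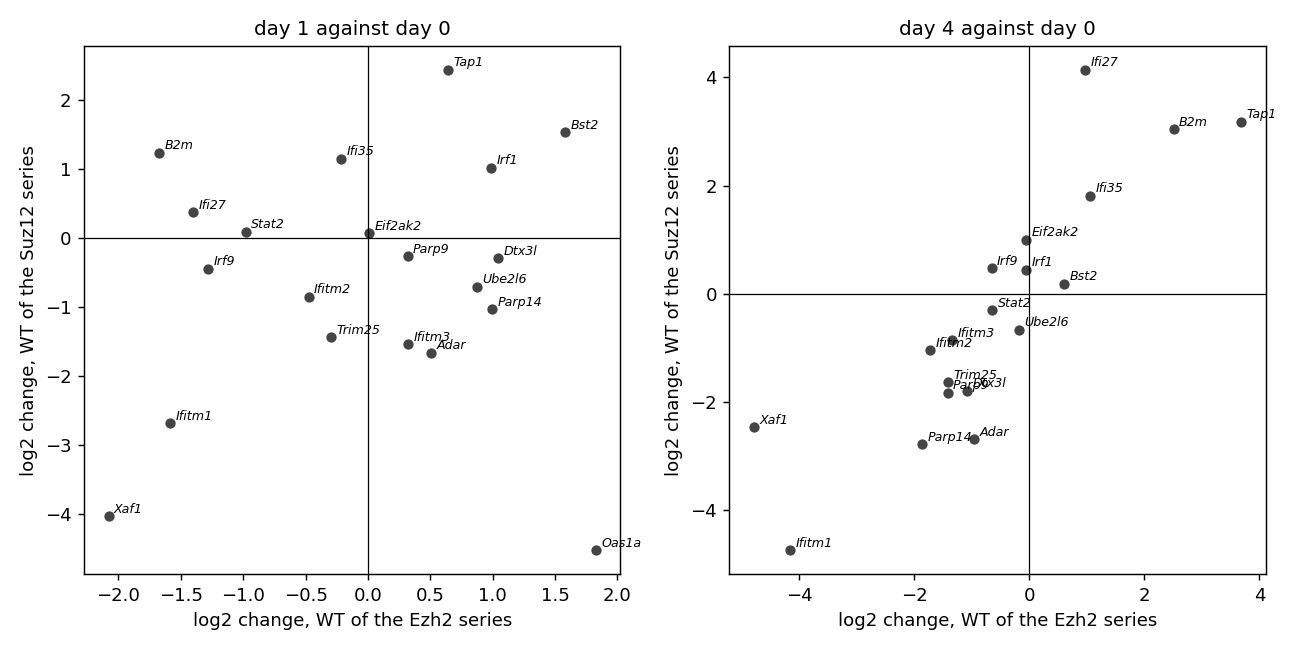
Log2 change in WT against day 0 for members with more than 3 counts in each group, Ezh2 series on the horizontal axis and Suz12 series on the vertical axis, at day 1 (20 members) and day 4 (19 members). On day 4, 5 members are positive in both series and 11 negative in both, and at day 1 the numbers are 4 and 5.

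The other genes of the pathway came from lists that were written down with the members. Of 21 interferon genes, the Ezh2 series had counts for 2, 18 counts in its 27 libraries, and the Suz12 series for 4, with 17 counts, and at most 5 counts in a library. For EV against WT of the Ezh2 series, the counts of each list are read against 17.4% of all genes higher and 12.5% lower at day 0, 13.5% and 7.63% at day 1, and 9.74% and 8.24% on day 4. The shares in the Suz12 series were 5.44% and 5.36% at day 0 and 3.97% and 4.12% at day 1, and 3.66% and 3.73% on day 4, which is a description. The receptors and signalling list, 15 genes tested in both series, had 2 higher and 2 lower at day 0, 0 and 2 at day 1, and 4 and 0 on day 4 in EV of the Ezh2 series. For EV of the Suz12 series it had 1 higher and 0 lower at day 0 and 2 and 0 at day 1. The MHC class I list had 12 of 18 genes tested in the Ezh2 series and 16 of 18 for the Suz12 lines. Its genes in EV of the Ezh2 series were 3 higher (Calr, Pdia3 and H2-K1) and 3 lower (Psme1, Tapbp and Tapbpl) at day 0, 2 and 0 at day 1, and 1 and 0 on day 4. In EV of the Suz12 series they were 0 and 2 at day 0, 3 (Tapbp, Tap2 and Psmb10) and 0 at day 1, and, as a description, 2 and 2 on day 4. H2-D1, a heavy chain, averaged 33.0 CPM in EV and 9.5 CPM in WT on day 4 of the Ezh2 series (edgeR adjusted p = 1.91e-05), and H2-K1 averaged 12.9 and 3.04 CPM at day 1 (adjusted p = 3.75e-05). At day 0 of the Suz12 series H2-D1 averaged 8.4 CPM in EV and 29.0 CPM in WT (edgeR adjusted p = 2.23e-10) and H2-K1 2.86 and 9.18 CPM (adjusted p = 2.34e-05). These heavy chains have close copies, so reads may be split between them. The nucleic acid sensing list had 17 genes tested in the Ezh2 series, of which 2 were higher and 4 lower in EV at day 0, 2 and 3 at day 1, and 5 and 2 on day 4. Of its 18 genes tested in the Suz12 series, edgeR called 0 higher and 1 lower at day 0 and none at day 1, and, as a description, 2 and 0 passed on day 4. At day 1, 4 of the 18 had an unadjusted p under 0.05, without the share of all genes beside it, and nothing is read from it. Of the 58 further interferon-stimulated genes, 28 were tested in the Ezh2 series, with 6 higher and 4 lower in EV at day 0, 9 and 2 at day 1, and 4 and 2 on day 4. For the Suz12 series 35 were tested, with 1 higher and 0 lower at day 0, 4 and 1 at day 1, and, as a description, 8 and 2 on day 4. The 2 lower there were Lgals9 and Ifi30, and EV on day 4 averaged 6.06 CPM of Ifi44 and WT 0.702 CPM.

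The calls were also counted by promoter. In EV of the Ezh2 series, 1 of 10 tested members with the repeat was higher and 4 of 12 without it at day 0, 2 of 10 and 3 of 12 at day 1, and 4 of 10 and 3 of 12 on day 4, where 17.4%, 13.5% and 9.74% of all genes were. The median log2 differences with and without the repeat were 0.08 and 0.03 at day 0, 0.49 and 0.19 at day 1, and 0.77 and 0.33 on day 4. The called members with the repeat include Ifit1 at day 1 and Ifih1 on day 4. Ifit1 passed the filter only through EV and amKR of day 1, and Ifih1 only through EV of day 4. The counts and medians with the repeat on those days are thus not independent of the filter. For EV of the Suz12 series, 1 of 10 with the repeat and 3 of 17 without it were higher at day 0, where 5.44% of all genes were, and 2 of 10 and 2 of 17 at day 1, where 3.97% were, with medians of 0.25 and −0.18 at day 0 and of 0.18 and 0.10 at day 1. On day 4 of that series, as a description, the medians were 0.54 with the repeat and 0.76 without it.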

How the data were processed

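Tags from 54 QuantSeq 3′ libraries were used as the authors deposited them, as counts per gene in 1 table per library. The build was mm10 per the submitters' processing notes, while the aligner, annotation and strand setting are not given in the sources used here. The authors also deposited 12 lists of gene symbols, which hold no values. Rows that name no gene were left out, 13.35% to 22.75% without a feature, 2.87% to 4.22% ambiguous and 16.93% to 23.27% not uniquely mapped. All rows of a table summed to 7996693 to 8002940 in the Ezh2 series and to 6997715 to 7001555 in the Suz12 series, and genes to 3801446 to 5111007.

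For each series (27 libraries, 9 groups), edgeR 4.0.16 under R 4.3.3 fitted a separate quasi-likelihood model with 1 mean per group, TMM scaling and filterByExpr. P-values were adjusted by Benjamini-Hochberg over all genes tested, two-sided, and called under 0.05. CPM, log2 changes and floors were computed from the counts. DESeq2 1.42.0 and 6 other kinds of change were tried. Values by library were to be given for up to 6 members each way in a comparison that were called without overlap at 5 CPM or more, and for Isg15 and Usp18. The values by library of other members, such as Psmb8, Ifit1, Ifit3, Ifih1 and Ube2l6, were chosen after they were seen. The members, the lists and the tests were chosen with earlier results of these data known.

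The replicate numbers in the labels paired the libraries where all 3 same-numbered correlations of the deviations from group means were over 0.1. This held for 3 of 36 group pairs of the Ezh2 series (12002 genes) and 0 of 36 of the Suz12 series (12369 genes), and among the pairs compared only for EV and WT on day 4 of the Ezh2 series, with correlations of 0.507, 0.424 and 0.108. No 2 libraries of a group were alike within sampling noise. Values of some genes on the marker and pathway lists are not reported here.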

Additional observations from a re-analysis of the deposited data

Results flagged for a closer look

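The effect of EV against WT in the Ezh2 series changed between day 0 and day 4 by a test of the difference itself for 3 members. The change, as a log2 value at day 4 minus that at day 0, was 2.015 for Tap1 (edgeR adjusted p = 0.015), 0.755 for Irf1 (adjusted p = 0.0378) and −1.408 for B2m (adjusted p = 0.000304). For Irf1 the adjusted p was between 0.063 and 0.0846 without any 1 of EV day 0 replicate 2 or 3, EV day 4 replicate 1 or 3, WT day 0 replicate 2 or 3, or WT day 4 replicate 3.

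In other cases every library of one group lay above its reference in one comparison and below it in the other, and the difference was not tested. Between the series, Ifitm1 was higher in EV of the Ezh2 series and lower in EV of the Suz12 series, with a difference of −2.059 at day 0 and −1.94 at day 1. From day 0 to day 1 in WT the change in the Suz12 series minus that in the Ezh2 series was −2.031 for Parp14, −6.904 for Samd9l, 2.91 for B2m, −2.166 for Adar and −1.582 for Ube2l6, and from day 0 to day 4 it was 1.133 for Irf9. Samd9l rests on 1 count in the Ezh2 series at day 0 and 3 counts in the Suz12 series at day 1.

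Between days of one series, the change in the effect of EV was also not tested. In the Ezh2 series it was 0.841 for Irf1 from day 0 to day 1 and 0.597 for Eif2ak2 from day 1 to day 4. In the Suz12 series from day 0 to day 1 it was 1.141 for Irf1 and 1.189 for Parp9. In the Suz12 series from day 0 to day 4, where day 4 chose the members, it was 0.709 for Irf1, 1.848 for Ifitm1, 2.121 for Parp9 and 1.311 for Tap1, and from day 1 to day 4 it was 1.354 for Ifitm1, 0.726 for Ifitm2 and 0.95 for Trim25.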

How the results depend on the processing

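Members called in each direction together moved by over 1.5 times in few comparisons. Against WT, amKR at day 0 had 1 member called, and 3 with no filter on low counts, 3 with the compared libraries only, 3 by DESeq2 and 2 with the replicate block. At day 1 amKR had 2 and 1 by DESeq2. EV at day 1 of the Suz12 series had 7, 3 with the compared libraries only and 4 by DESeq2. With the compared libraries only, ddim had 0 in place of 1 at day 1 and 1 in place of 0 on day 4, and WT of the Suz12 series at day 1 against day 0 had 17 in place of 26. The cause was not tested. Leaving out 1 library at a time gave 3 to 6 for amKR against EV on day 4, 0 to 0 for amKR against WT at day 0, 0 to 2 at day 1, 3 to 6 for EV against WT at day 0 and 3 to 6 at day 1 of the Suz12 series, and 0 to 1 for ddim at day 1. On day 4 EV against WT gave 6 to 8 in the Ezh2 series and 17 to 21 in the Suz12 series. The Suz12 series counts follow from how the list was chosen and from the filter. Those of the Ezh2 series can hold Ifih1, which passed the filter only through EV libraries of day 4. Nothing is read from either range. Among member values called in the main fit, no direction reversed under any alternative run.

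The next counts cover only member values called in the main fit, so a call gained is not in them. A value was kept if its adjusted p stayed under 0.05. In comparisons with Suz12 series EV of day 4, it was kept if its log2 change moved by less than its standard error. The fit with the replicate number as a block kept 284 and left 3 weaker, and it moved no count on day 4 by over 1.5 times. Leaving out 1 library at a time kept 1664, left 127 weaker and moved 33. DESeq2 kept 274 and left 12 weaker, the scaling by median of ratios 286 and 1, and the offset for chromosome medians 84 and 1. With no filter on low counts these were 275 and 12, and with the compared libraries only 230 and 9. A value that an alternative fit did not test is in none of these numbers. This lowers those of the compared libraries only, which were filtered anew. For EV against WT at day 0 of the Ezh2 series, that fit tested 16 members in place of 25. Counts near the floor limit Isg15 and Usp18 at day 0.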
